A study of Rattus norvegicus with 4 samples.

Results

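Cholesterol synthesis and its feedback by Insig proteins were followed in rat liver through 7 genes, 3 for regulators of sterol sensing (*Srebf2*, *Insig1* and *Insig2*) and 4 for enzymes of the pathway (*Hmgcs1*, *Idi1*, *Sqle* and *Cyp51*). The genes were taken by their symbols from 16999 gene symbols in the deposited tables, and each had 1 row in every library. The question was how their RNA changed over 6 h of inhalational anesthesia with sevoflurane or desflurane, and how far each change depended on the control library it was measured against. *Hmgcs1* RNA was lower after 6 h of either agent, whichever control was used. *Insig1* RNA fell with sevoflurane and rose with desflurane, but its level also differed between the controls, and neither call held against the other control. *Idi1* fell with sevoflurane alone by the rule used here, but that call did not hold against the other control either. *Cyp51* with sevoflurane lay just short of the rule, and *Srebf2*, *Insig2* and *Sqle* passed it in no comparison.

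The 4 libraries were stranded total RNA libraries depleted of ribosomal RNA from livers of wild type rats, 1 library for each of 4 groups. The anesthetized groups inhaled 4.5% sevoflurane or 6% desflurane for 6 h, and each control (0 h) inhaled the same agent at the same concentration and was decapitated as soon as it lost consciousness, so that all groups, controls included, had breathed an agent and no untreated liver was measured. Livers of control and anesthetized rats were taken 6 h apart, so the duration of anesthesia and the hour of harvest cannot be told apart. Strain, sex, age and the number of animals behind a library are not given in the labels, and with 1 library per group no difference below has a replicate check or a p-value.

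Levels are given as TPM, the abundance per transcript length as deposited, and changes as differences of log2(TPM + 1). A gene was called higher or lower where its level passed a TPM of 2 in the higher library and the libraries differed by more than 2-fold. The libraries held 3.50, 5.38, 5.29 and 5.57 Gb of aligned bases (sevoflurane 0 h and 6 h, then desflurane 0 h and 6 h, the order used throughout), and a TPM of 2 stood for a mean coverage between 4.72 and 7.28 reads per base. All 6 hepatocyte markers were above a TPM of 2 in each library, albumin lying between 53282 and 58867 TPM, and the lymphocyte and cholangiocyte markers summed to at most 8.61 TPM. In bulk liver, fewer cells of a type and less RNA per cell cannot be told apart.

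Cells sense sterols in the membrane of the endoplasmic reticulum. SREBP2, the product of *Srebf2*, is made there as an inactive precursor bound to the escort protein Scap; when sterols are scarce, Scap carries it to the Golgi, where proteases release the part that enters the nucleus and raises transcription of the synthesis enzymes. When sterols are abundant, Insig proteins hold Scap in the endoplasmic reticulum and also take part in the degradation of sterol synthesis proteins. *Insig1* is itself a target of SREBPs, which closes a feedback loop, whereas *Insig2* is not, and in rodent liver a form of *Insig2* from an upstream first exon is lowered by insulin. In liver the pathway is known to follow feeding and the time of day.

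The annotated promoters of *Srebf2*, *Insig1*, *Hmgcs1* and *Idi1* are given for reference, from 250 bases before to 50 bases after the start of the gene in RefSeq on the assembly GRCr8. They were matched to the tables by symbol only, since the tables use the assembly rn6. Capitals mark the letters CCAAT and CACNCCA on either strand, the first the core of sites for the NF-Y factor and the second the core of a sterol regulatory element, the motif SREBPs bind. The windows are chr7:115543057-115543356, plus strand (*Srebf2*), chr4:8057720-8058019, minus strand (*Insig1*), chr2:53382054-53382353, plus strand (*Hmgcs1*), and chr17:66547475-66547774, minus strand (*Idi1*), each written 5′ to 3′ along its gene.
Srebf2: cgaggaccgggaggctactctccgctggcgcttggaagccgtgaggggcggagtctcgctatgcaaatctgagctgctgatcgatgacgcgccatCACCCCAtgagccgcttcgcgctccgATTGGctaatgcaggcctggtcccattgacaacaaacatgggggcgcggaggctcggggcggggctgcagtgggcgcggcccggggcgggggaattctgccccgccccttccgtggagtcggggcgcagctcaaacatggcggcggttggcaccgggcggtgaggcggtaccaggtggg
Insig1: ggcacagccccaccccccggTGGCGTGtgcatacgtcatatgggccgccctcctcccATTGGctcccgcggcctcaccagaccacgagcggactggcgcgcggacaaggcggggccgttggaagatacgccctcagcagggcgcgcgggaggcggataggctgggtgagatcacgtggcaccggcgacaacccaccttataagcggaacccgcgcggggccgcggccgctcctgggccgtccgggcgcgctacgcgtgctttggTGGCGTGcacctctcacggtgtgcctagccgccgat
Hmgcs1: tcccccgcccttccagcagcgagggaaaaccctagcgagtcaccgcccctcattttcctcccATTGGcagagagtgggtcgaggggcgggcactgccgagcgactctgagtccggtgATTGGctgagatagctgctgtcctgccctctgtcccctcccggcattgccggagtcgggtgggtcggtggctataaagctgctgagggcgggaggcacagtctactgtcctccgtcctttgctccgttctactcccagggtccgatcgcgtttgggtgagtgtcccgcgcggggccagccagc
Idi1: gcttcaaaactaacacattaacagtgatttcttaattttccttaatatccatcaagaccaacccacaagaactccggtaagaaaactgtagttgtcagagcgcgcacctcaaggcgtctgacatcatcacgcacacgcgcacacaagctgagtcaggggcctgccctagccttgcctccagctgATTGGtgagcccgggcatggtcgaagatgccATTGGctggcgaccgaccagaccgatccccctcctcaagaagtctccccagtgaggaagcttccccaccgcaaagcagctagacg

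CCAAT occurred in 5 of the 6 windows found for the 7 genes, against 37.5% of all 33469 promoter windows of that length. CACNCCA occurred in 2 of the 6, against 17.2%. The longer form TCACNCCAC, which contains it, occurred in none, against 1.12%. The window of *Cyp51*, which is not printed, held none of these motifs. In *Srebf2* the core element began 155 bases before the start and CCAAT 129 bases before it. The *Insig1* window held the core element 230 bases before the start and again 14 bases past the first base of the gene. Both lay on the minus strand of the gene, with CCAAT at -193. *Hmgcs1* had CCAAT at -188 and -133, and *Idi1* at -66 and -35. These are matches of letters, in a window that leaves out everything farther from the start.

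*Srebf2*, the gene of the transcription factor itself, lies at chr7:123381082-123438605 on the plus strand of rn6. By the named rows it was the least abundant of the 7 genes in 3 of the 4 libraries. It lay above *Sqle* in the desflurane control. Its level was 6.53 TPM in the sevoflurane control, 4.12 after 6 h of sevoflurane, 5.70 in the desflurane control and 4.01 after 6 h of desflurane. Both 6 h libraries lay below both controls. The changes were -0.56 with sevoflurane and -0.42 with desflurane on the log2 scale, beside a difference of -0.17 between the controls, and none passed the rule. The 6 h libraries differed by -0.03. The assembled locus lay in 1 piece in each sevoflurane library but in more than 1 piece in each desflurane library (4.54 and 4.48 TPM after 6 h). With the TPM of the pieces summed, the difference between the controls turned to 0.14 and that between the 6 h libraries to 0.50. TPM is given per length, so such a sum counts a split transcript more than once. These values are therefore no measure of *Srebf2*. Mean coverage of the gene was between 14.1 and 19.7 reads per base, the lowest of the 3 regulators among the 7 genes.

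*Insig1*, the retention protein that SREBPs induce (chr4:342302-350515, plus strand of rn6), had the widest range of the 7 genes, 5.20-fold from the lowest library to the highest. Its level was 143 TPM in the sevoflurane control, 69.5 after 6 h of sevoflurane, 53.6 in the desflurane control and 279 after 6 h of desflurane. The desflurane libraries held both the lowest and the highest value, with the sevoflurane libraries between them. Against its own control *Insig1* fell by 1.03 with sevoflurane, which is 2.06-fold, and rose by 2.36 with desflurane, which is 5.20-fold. With desflurane, 42 of 8372 genes had a larger positive change.

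The controls differed in *Insig1* by more than the sevoflurane pair did. The desflurane control was 2.67-fold below the sevoflurane control, a log2 difference of -1.40, and 4 of 8263 genes had a lower difference there. Read against the desflurane control, the sevoflurane 6 h library was 1.30-fold higher (0.37), so that the direction turned. Read against the sevoflurane control, the desflurane 6 h library was 1.95-fold higher (0.95), in the same direction but short of the rule. Against the mean of the controls the changes were -0.50 and 1.49. After 6 h, *Insig1* was 4.01-fold higher with desflurane than with sevoflurane (1.99), and 6 of 8229 genes had a larger positive difference between these libraries. The change with desflurane exceeded that with sevoflurane by 3.39 on the log2 scale, the sum of what the 6 h libraries and the controls contributed.

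By its named row, *Insig2*, the form of Insig not induced by SREBPs, was the most abundant of the 7 genes in every library. Its level was 386 TPM in the sevoflurane control, 246 after 6 h of sevoflurane, 333 in the desflurane control and 379 after 6 h of desflurane. The sevoflurane 6 h library stood below the other 3, which lay close together. The change was -0.65 with sevoflurane and 0.19 with desflurane, beside -0.21 between the controls, and none passed the rule.

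The row named *Insig2* does not cover all the RNA that the tables assign to this locus. It spans chr13:37266413-37279866 on the minus strand of rn6, whereas the locus assembled from the reads began between 12.8 and 12.9 kb upstream of its annotated 5′ end in all 4 libraries. The assembled locus had 213, 176, 204 and 133 TPM in the same order. Its change was -0.27 with sevoflurane and -0.61 with desflurane, with -0.07 between the controls. The desflurane 6 h library was thus among the higher values by the named row and the lowest by the assembled locus. The direction of *Insig2* with desflurane therefore depended on the row read. Its rank did too, since *Insig1* at 279 TPM was above the assembled *Insig2* locus at 133 TPM in that library. The assembled locus was not 1 gene model, however. Its 3′ end lay 4.165 kb beyond the named row in that library, against 1.595 to 1.889 kb in the others. The part of this longer extent in the low value was not tested. For *Insig1*, *Hmgcs1*, *Idi1* and *Cyp51* the assembled locus and the named row gave the same TPM within 1% in all 4 libraries.

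**Figure D1:**
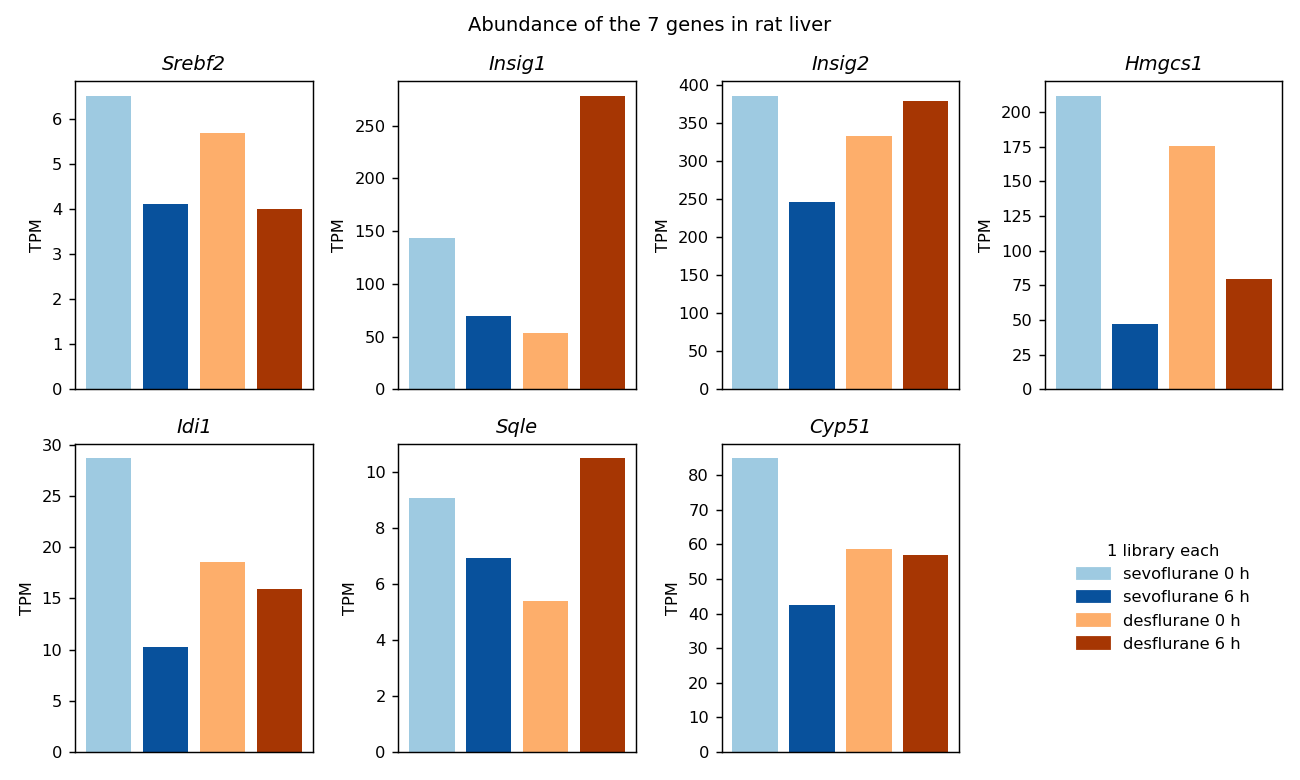
Abundance of the 7 genes in each library, with TPM on the vertical axis of each panel starting at 0 and 1 bar for each of the 4 libraries (no error can be drawn). *Hmgcs1* is lower in both 6 h libraries than in both controls, and the *Insig1* controls differ (143 and 53.6 TPM).

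*Hmgcs1*, the cytosolic HMG-CoA synthase that feeds the mevalonate pathway (chr2:52427579-52445082, plus strand of rn6), showed the largest fall among the 7 genes with either agent. Its level was 212 TPM in the sevoflurane control, 47.5 after 6 h of sevoflurane, 175 in the desflurane control and 79.9 after 6 h of desflurane. The controls and the 6 h libraries did not overlap. *Hmgcs1* fell by 2.13 with sevoflurane (4.46-fold), where 22 of 8270 genes had a lower change, and by 1.12 with desflurane (2.19-fold). The controls differed by -0.27. Against the other agent's control the changes were -1.86 and -1.39, both still past the rule. After 6 h the desflurane library was above the sevoflurane library by 0.74, short of the rule.

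*Idi1*, which converts isopentenyl diphosphate into its reactive isomer, lies at chr17:57976266-57984036 on the minus strand of rn6. It had 28.7 TPM in the sevoflurane control, 10.2 after 6 h of sevoflurane, 18.5 in the desflurane control and 15.9 after 6 h of desflurane. The desflurane pair lay between the sevoflurane libraries. *Idi1* fell by 1.40 with sevoflurane (2.80-fold) and differed by -0.20 with desflurane, beside -0.60 between the controls. Against the other control, the values were -0.80 for sevoflurane and -0.81 for desflurane, neither past the rule. The row overlaps that of *Wdr37* on the opposite strand, and RefSeq lists pseudogenes of *Idi1* and of *Cyp51*, so reads of these genes may be shared with copies.

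*Cyp51*, which removes a methyl group from lanosterol (chr4:27175564-27194016, plus strand of rn6), followed *Idi1* more closely than any other pair of the 7 genes followed each other, with a root mean square difference of 0.16 between their centred log2 levels over the 4 libraries. Its levels were 84.9, 42.5, 58.8 and 56.9 TPM. The sevoflurane control was the highest library and the sevoflurane 6 h library the lowest. Its change was -0.98 with sevoflurane, which at 1.997-fold lies just outside the rule as *Insig1* at 2.06-fold lies just inside it, and which passed the rule under all 3 other scalings (-1.04, -1.01 and -1.06). With desflurane the change was -0.05, and the controls differed by -0.52. Against the other control the values were -0.46 for sevoflurane and -0.57 for desflurane, neither past the rule. Against the mean of the controls the sevoflurane value was -0.74, also short of it.

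*Sqle*, squalene epoxidase, the first enzyme of the branch committed to sterols that uses oxygen (chr7:99609929-99624803, plus strand of rn6), went the other way from *Hmgcs1* with desflurane. Its levels were 9.05, 6.91, 5.40 and 10.5 TPM, with a mean coverage between 18.6 and 38.1 reads per base. The desflurane pair held both its lowest and its highest value, as for *Insig1*. The changes were -0.35 with sevoflurane and 0.84 with desflurane (1.94-fold), beside -0.65 between the controls, and none passed the rule. Against the other control the sevoflurane value turned to 0.31, and the desflurane value was 0.19.

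With sevoflurane, 3 of the 7 genes were called lower (*Insig1*, *Hmgcs1* and *Idi1*) and none higher, where 3.71% of 8270 genes were called lower and 5.04% higher. With desflurane *Insig1* was called higher and *Hmgcs1* lower, where 4.10% of 8372 genes were called higher and 5.55% lower. Between the controls *Insig1* was called lower in the desflurane library and none was called higher, where 0.799% of 8263 genes were called lower and 1.96% higher. After 6 h *Insig1* was called higher with desflurane than with sevoflurane and none lower, where 2.21% of 8229 genes were called higher and 1.77% lower. Of these calls against a 6 h library's own control, those of *Hmgcs1* were the ones that also held against the other agent's control.

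By the named rows, the sevoflurane control held the highest value of 5 of the 7 genes (*Srebf2*, *Insig2*, *Hmgcs1*, *Idi1* and *Cyp51*), and the sevoflurane 6 h library the lowest of 4 of them. By the same rows, all 7 genes were lower in the desflurane control than in the sevoflurane control, and all 7 had a negative change with sevoflurane. These comparisons share the sevoflurane control library, so the signs are not separate evidence. By the named rows, the change with desflurane was above the change with sevoflurane for each gene, from 0.14 (*Srebf2*) over 0.83 (*Insig2*), 0.94 (*Cyp51*), 1.01 (*Hmgcs1*), 1.19 (*Sqle*) and 1.20 (*Idi1*) to the 3.39 of *Insig1*. By the assembled locus, which reached farthest in the desflurane 6 h library, *Insig2* was lowest after desflurane. By that locus its change with desflurane lay below that with sevoflurane. The value of 0.14 for *Srebf2* between the controls with assembled loci came from summing the pieces of a locus that was split in the desflurane libraries only.

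**Figure D2:**
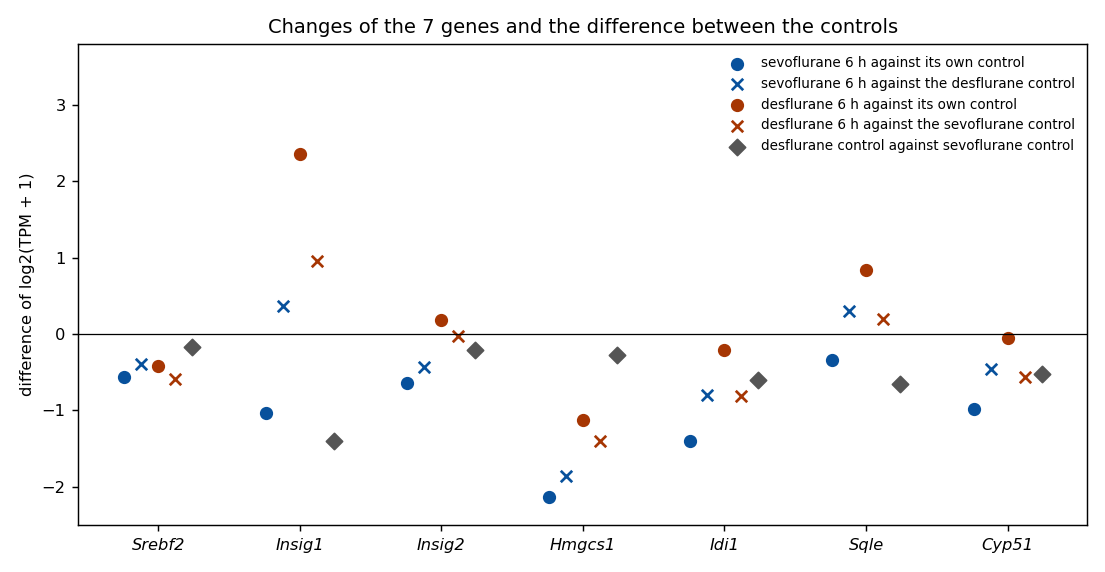
Changes of the 7 genes as differences of log2(TPM + 1) on the vertical axis, with circles for a 6 h library against its own control, crosses for the same library against the other agent's control and diamonds for the desflurane control against the sevoflurane control. For *Hmgcs1* all 4 circles and crosses lie below -1, and for *Insig1* the sevoflurane circle (-1.03) and cross (0.37) lie on opposite sides of 0.

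Ratios between genes of the same library do not depend on how that library was scaled. *Insig1* stood to *Insig2* as 0.371, 0.282, 0.161 and 0.734, so by the named rows *Insig2* was the more abundant of the pair in every library and the margin was smallest after 6 h of desflurane. That ratio was 4.56-fold higher after desflurane than in its control. The *Sqle* to *Hmgcs1* ratio was 0.0427 and 0.0308 in the controls and 0.145 and 0.131 in the 6 h libraries of sevoflurane and desflurane, which is 3.40-fold and 4.26-fold higher. The *Cyp51* to *Hmgcs1* ratio was 0.401 and 0.335 in the controls against 0.895 and 0.712 at 6 h, 2.23-fold and 2.12-fold higher. Relative to the other 3 enzymes, *Hmgcs1* was therefore lower in both 6 h libraries than in both controls, the *Idi1* to *Hmgcs1* ratio also being 1.59-fold and 1.89-fold higher.

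**Figure D3:**
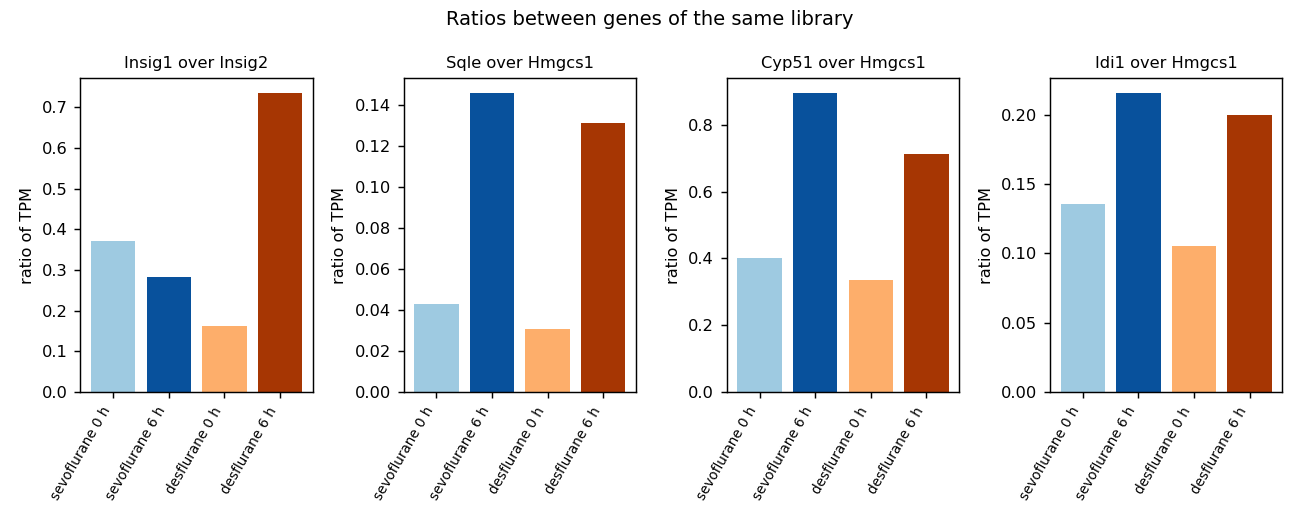
Ratios of TPM between genes of the same library on the vertical axis of each panel, starting at 0, with 1 bar per library. The ratios of *Sqle*, *Cyp51* and *Idi1* to *Hmgcs1* are higher in both 6 h libraries than in both controls, whereas the *Insig1* to *Insig2* ratio is highest after desflurane (0.734).

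The other regulators of SREBP processing were *Srebf1*, *Scap* and the proteases *Mbtps1* and *Mbtps2*. *Srebf1*, whose product drives fatty acid synthesis and whose liver RNA is raised by insulin, had 146, 48.6, 102 and 27.2 TPM. It fell 3.00-fold with sevoflurane and 3.76-fold with desflurane, and both calls held against either control. *Scap* lay between 10.2 and 11.8 TPM in all 4 libraries. Of the 7 genes in this list, 2 were called lower with sevoflurane (*Srebf1* and *Insig1*), while with desflurane *Srebf1* was called lower and *Insig1* higher.

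Across 21 enzymes from acetoacetyl-CoA to cholesterol, with *Ggps1* of a side branch among them, 8 were called lower with sevoflurane, 2 with desflurane and 1 in the desflurane control, where 3.71%, 5.55% and 0.799% of all genes were called lower, and none was called higher in any of these comparisons. The 2 and 1 calls among 21 enzymes are each about 1 gene from those shares. The summed level of the 21 was 1191, 614, 845 and 710 TPM. It was highest in the sevoflurane control and lowest after 6 h of sevoflurane, and the desflurane pair lay between. The median change was -0.66 with sevoflurane, with 20 of 21 negative, against 0.05 over 9201 genes with a mean TPM above 1. With desflurane it was -0.11 against -0.10, and between the controls -0.50 against 0.11, with 19 of 21 negative. Without the 4 enzymes above, the other 17 had medians of -0.52, -0.11 and -0.46. Read against the other agent's control, the median over the 21 was -0.34 for sevoflurane and -0.64 for desflurane, so that which agent showed the lower median depended on the control. The 6 h libraries differed by a median of 0.20 over the 21 enzymes and of 0.0027 over the 17, beside -0.03 over all genes, and no enzyme was called between them. The median differences of the list with sevoflurane and between the controls again rest on the same sevoflurane control.

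In the mevalonate branch, 6 of 8 enzymes were called lower with sevoflurane. Besides *Hmgcs1* and *Idi1* these were *Acat2*, the cytosolic thiolase (8.02, 2.78, 3.87 and 3.90 TPM), *Pmvk*, phosphomevalonate kinase (30.6, 10.4, 17.1 and 9.90), *Mvd*, mevalonate diphosphate decarboxylase (4.64, 1.32, 3.39 and 1.67), and *Fdps*, farnesyl diphosphate synthase (246, 99.95, 134 and 129). *Mvd* was also called lower with desflurane, and like *Hmgcs1* it kept both calls against either control. At 2.03-fold its desflurane call was lost with scaling by the median of ratios, with named genes brought to the same total, with assembled loci and with a TPM minimum of 5. That of *Hmgcs1* was kept under each of these, though at -1.014 with scaling by the median of ratios it lay close to the edge of the rule. *Acat2* was called lower in the desflurane control than in the sevoflurane control.

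Past farnesyl diphosphate, 1 of 3 enzymes between squalene and lanosterol was called lower with sevoflurane, *Fdft1*, squalene synthase (50.1, 21.2, 27.2 and 30.1 TPM). Of 10 enzymes between lanosterol and cholesterol, *Dhcr7*, a reductase of the last steps, was called lower with sevoflurane (37.9, 13.5, 24.3 and 19.7 TPM). No enzyme of these lists was called with desflurane. Of the 8 sevoflurane calls among the 21 enzymes, 2 held against the desflurane control as well (*Hmgcs1* and *Mvd*), and *Acat2*, *Pmvk*, *Idi1*, *Fdps*, *Fdft1* and *Dhcr7* did not.

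**Figure D4:**
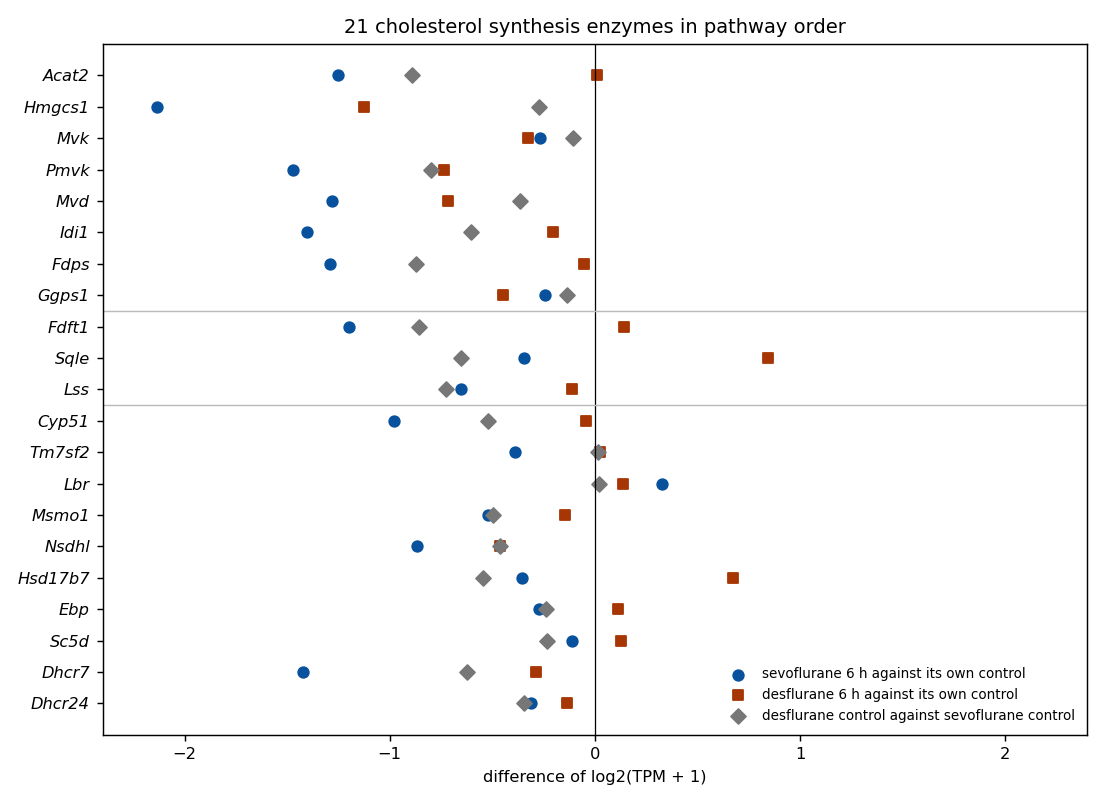
Differences of log2(TPM + 1) on the horizontal axis for 21 enzymes in pathway order, with grey lines between the mevalonate branch, the steps to lanosterol and the steps to cholesterol. Circles (sevoflurane) lie below 0 for 20 of 21 enzymes, diamonds (difference between the controls) for 19 and squares (desflurane) for 13.

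Of 5 genes of sterol uptake and transport, none was called with either agent. *Stard4*, which carries cholesterol between membranes, had 14.7, 24.4, 11.8 and 22.4 TPM, above both controls in both 6 h libraries. It was short of the rule against either library's own control, and the sevoflurane 6 h library was 2.07-fold above the desflurane control.

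Sterol synthesis proteins are degraded from the endoplasmic reticulum through ubiquitin ligases and their partners. Of 9 measured genes of that route, *Marchf6*, a ligase that also acts on squalene epoxidase, was called higher with sevoflurane (33.1, 76.9, 42.0 and 69.9 TPM), a call that did not hold against the desflurane control. None was called with desflurane. *Erlin1*, whose product binds cholesterol in the endoplasmic reticulum, was called lower after 6 h of desflurane than after 6 h of sevoflurane (19.8, 33.1, 24.7 and 15.2 TPM).

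Of 8 genes of sterol efflux and its LXR control, *Abcg5* and *Abcg8*, which form the transporter that secretes sterols into bile, were called higher with sevoflurane, and *Abcg5* also with desflurane. *Abcg5* had 6.97, 33.4, 9.58 and 20.6 TPM and *Abcg8* 1.57, 4.17, 2.26 and 3.23. Both calls of *Abcg5* held against either control, and that of *Abcg8* did not. Of 5 genes of cholesterol esterification and its reversal, *Nceh1*, a hydrolase of cholesteryl esters, was called higher with both agents (3.01, 27.0, 7.63 and 19.1 TPM) and in the desflurane control over the sevoflurane control, and its 6 h values were called higher than either control.

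Over the 48 genes of these lists other than the 7 described first, sevoflurane gave 4 calls higher and 7 lower, where 5.04% and 3.71% of all genes were called, and desflurane gave 2 higher and 2 lower, where the shares were 4.10% and 5.55%. The desflurane split was 4 higher and 1 lower with scaling by the median of ratios and 5 higher and 1 lower with assembled loci. Between the controls 1 was called higher and 1 lower, and between the 6 h libraries none was higher and 1 lower. Of the 11 sevoflurane calls, 4 held against both controls, and so did all 4 desflurane calls. For either agent these were *Srebf1* and *Mvd*, which were lower, and *Abcg5* and *Nceh1*, which were higher, but the counts for both agents rest on the same pair of control libraries.

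Other quantities moved with these results, and their part in them was not tested. The 5 red blood cell markers summed to 472, 1273, 765 and 1397 TPM, all 5 higher at 6 h with both agents and in the desflurane control. The 6 macrophage markers summed to between 277 TPM after 6 h of sevoflurane and 354 TPM after 6 h of desflurane, with 5 of 6 lower in the sevoflurane pair and 6 of 6 higher in the desflurane pair. The 5 lymphocyte markers summed to 7.12, 3.54, 5.65 and 3.60 TPM, lower in both 6 h libraries than in both controls, with *Cd3e* at 0 in both controls. Single lymphocyte markers were split, with 3 of 5 lower in the sevoflurane pair and 3 of 5 higher in the desflurane pair. None of them was above a TPM of 2 in all libraries. The sums were 54.9, 52.1, 50.5 and 60.4 TPM for 5 endothelial markers and 27.5, 24.3, 25.8 and 27.4 TPM for 5 stellate cell markers. The 6 hepatocyte markers summed to between 84345 and 95722 TPM, lowest after desflurane. The sevoflurane control, the highest library for 5 of the 7 genes, was also the shallowest.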

How the data were processed

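The 4 libraries were assigned to groups by their titles. According to the submitters' processing notes, which name HISAT2, SAMtools, StringTie and the build rn6 without versions, the authors deposited a gene abundance table for each library. The deposited TPM column was handled as a score, because the assembled loci alone sum to 1000000 and the named genes add a further 0.766 to 0.789 times as much. The FPKM column deposited by the authors was used for depth and as another scaling. Deposited coverage is mean depth per base and is not scaled. Read counts are not part of the tables, and counting error could not be computed.

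Rows of at most 200 bp were left out, and rows of 1 symbol were summed (397 symbols had more than 1). Changes used a pseudocount of 1, which understates those of low genes. With 1 library per group, a call needed a TPM above 2 in the higher library and a ratio above 2, and no test was run. The median over all genes used a mean TPM above 1, and patterns were compared above a mean of 5. Named were the 7 genes, *Srebf1* and *Scap*, every gene of 8 pathway lists (56 genes, 55 in the tables) that was called in any comparison, and the 5 nearest in pattern to *Insig1* and to the mean of the 4 enzymes. *Stard4*, *Ggps1*, *Mbtps1* and *Mbtps2* were named in addition, after their values were seen. Some further genes of the pathway are not reported here and were left out of the lists. Members and lists were chosen with earlier results of these data known. In all, 14 alternatives were tried. The scripts (Python 3.11.15, numpy 2.4.6, pandas 2.3.3, matplotlib 3.10.9) were tested on simulated data.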

Additional observations from a re-analysis of the deposited data

Results flagged for a closer look

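The change of *Insig1* with desflurane exceeded that with sevoflurane by 3.39 on the log2 scale, because it was higher after 6 h of desflurane (279 against 53.6 TPM in its control) and lower after 6 h of sevoflurane (69.5 against 143 TPM), opposite directions in the 1 library pair of each agent. The difference was not tested, since each group has 1 library. Against the other agent's control the sevoflurane library was 0.37 higher and the desflurane library 0.95 higher, so the directions were not opposite there, whereas against the mean of the controls they were (-0.50 and 1.49).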

How the results depend on the processing

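With 1 library per group no library could be left out, and no paired analysis was possible because the groups share no replicate that labels pair. Against the other agent's control, the calls with sevoflurane went from 3 to 1 of the 7 genes and from 11 to 5 of the other 48, and with desflurane from 2 to 1 and from 4 to 9, and the *Insig1* change with sevoflurane reversed to 0.37. A ratio above 1.5 gave 6 and 19 calls with sevoflurane, 13 of the 48 with desflurane, 3 and 8 between the controls (1 and 2 in the main analysis) and 5 and 5 between the 6 h libraries (1 and 1). A ratio above 3 gave 1 and 4 with sevoflurane, 1 and 1 with desflurane, 0 and 0 between the controls and 0 of the 48 between the 6 h libraries. With assembled loci in place of named rows, 5 of the 48 were called between the controls and 5 between the 6 h libraries. In that setting the TPM of all assembled pieces over a named row was summed, so a locus split in 1 library only counts more there. Scaling by the median of ratios gave 4 of the 48 between the controls, where it moved the median of all genes from 0.11 to 0.00, and brought *Sqle* with desflurane past the rule, as assembled loci did. *Cyp51* with sevoflurane passed under all 3 other scalings, but not against the other control or the mean of both. Apart from the fixed effect of a lower or higher threshold, the cause of these shifts was not tested. Of the other combinations of result, comparison and setting, 95 left a count within 1.5 times its value or a median with its direction. Counted per gene, comparison and setting, single members kept direction and call in 206 cases, and 9 moved, 5 gained a call, 3 lost one and 1 reversed. Many of the 206, and some of the 95, were fixed in advance and are no check. With 1 row per gene the largest row equals the sum, and the pseudocount can alter neither direction nor call. RNA level says nothing of protein or of sterol content, and low genes such as *Srebf2* are the least precise.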

Other observations

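Likeness of pattern was measured over the 4 libraries as the root mean square difference of centred log2(TPM + 1) levels, among 5840 genes outside the pathway lists, and is a description with 4 points that share their libraries. Nearest to the mean of *Hmgcs1*, *Sqle*, *Idi1* and *Cyp51* were *LOC691141* (0.038), *Echdc1* (0.056), *Casp1* (0.059), *Ly86* (0.088) and *Gbp2* (0.089). The mean joins enzymes that differ among themselves (0.95 between *Hmgcs1* and *Sqle*), so a gene near the mean need not be near each enzyme. *Casp1*, an inflammatory caspase, had 9.58 TPM in the sevoflurane control, 3.10 after 6 h of sevoflurane, 5.81 in the desflurane control and 5.46 after 6 h of desflurane.

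Nearest to *Insig1* were *Gdf15* (0.28), *G6pc* (0.30), *Jund* (0.39), *Gstm3l* (0.40) and *Btg2* (0.40), at greater distances than the genes nearest to the mean of the enzymes. The profiles differ in width, since centred levels ran from -1.03 to 1.32 for *Insig1* and from -0.62 to 0.59 for that mean. *Gdf15*, a secreted factor raised by cellular stress, had 4.53, 1.31, 1.10 and 14.5 TPM. *G6pc*, the catalytic subunit of glucose-6-phosphatase and the step that releases glucose from liver, had 361, 258, 199 and 651 TPM. Both were lowest in the desflurane control and highest after 6 h of desflurane, as *Insig1* was, and lower after 6 h of sevoflurane than in its control.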
